A study of Mus musculus with 5 samples.

Results

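Barcodes rich in 6 very long neuronal transcripts were examined in the ERBB2i library of a small cell lung cancer (SCLC) mouse study. They were selected on measured values of this library, in 3 steps. Barcodes had to have more than 150 detected genes, at most 8% of their unique molecular identifiers (UMIs) in mitochondrial (mt-) genes, and no UMI of Ptprc, Cd3e or Cd74, which mark leukocytes, T cells and antigen presenting cells. Of 26294 deposited barcodes, 15663 met these limits. They were ranked by the share of their UMIs in Nrxn3, Ccser1, Nrg3, Asic2, Mdga2 and Lsamp, and the top 5%, 784 barcodes, were taken as rich. The other 14879 are the remaining barcodes. The whole series holds 86735 barcodes.

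All mice carried floxed alleles of Rb1 and Trp53 (Rb1 fl/fl x Trp53 fl/fl), on a C57BL/6 background, of both sexes and at least 6 weeks old at induction. Tumors were induced by inhaled adenovirus carrying Cre, so that infected lung cells and their descendants lost both genes, and treatment began once a lesion was measurable, after about 6 months. The promoter that drives Cre is not known from the sources used here. The ERBB2i group received mubritinib, a small-molecule inhibitor of the receptor tyrosine kinase ERBB2, at 10 mg/kg every 3 days. The other libraries came from vehicle (phosphate-buffered saline), anti-PD-1 (a checkpoint antibody, 10 mg/kg), the combination of both agents, and a combination tumor labeled as in response. There were 5 libraries, 1 per group, so a treatment cannot be told apart from its tumor, and no test between groups or between barcodes was made. Intervals below are 95%. Those of levels and log2 ratios cover counting error of UMIs only. Those of medians and of shares of barcodes treat the barcodes of 1 library as independent and describe only that library.

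SCLC is a neuroendocrine carcinoma whose cells share with neurons the machinery for making and releasing secretory granules, and which transcribe many genes of synapses and cell adhesion. Such genes are often extremely long, and almost all of that length is intron. Unspliced pre-mRNA and some long non-coding RNAs stay in the nucleus, whereas spliced mRNA for ribosomal proteins and the cytoskeleton gathers in the cytoplasm. Transcripts of the mitochondrial genome stay in mitochondria. These classes were therefore measured side by side, and a nuclear origin of the rich barcodes was not tested. The sources used here do not say whether reads in introns were counted.

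The rich barcodes were shallow. They held a median of 994.5 UMIs (interval 946 to 1056) and 741 genes, against 2350 UMIs (2312 to 2389) and 1504 genes in the remaining barcodes. The deepest rich barcode had 6307 UMIs and the lowest had 500, the minimum found in the files. Since low depth went with the choice, the ratios of genes, gene lists and RNA classes were also computed against remaining barcodes weighted to the same distribution of UMIs, called depth-matched below. ERBB2i and combination shared 782 barcode sequences, 24 of them rich; without them the values given below for RNA classes stayed within 0.01 on the log2 scale.

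**Figure D1:**
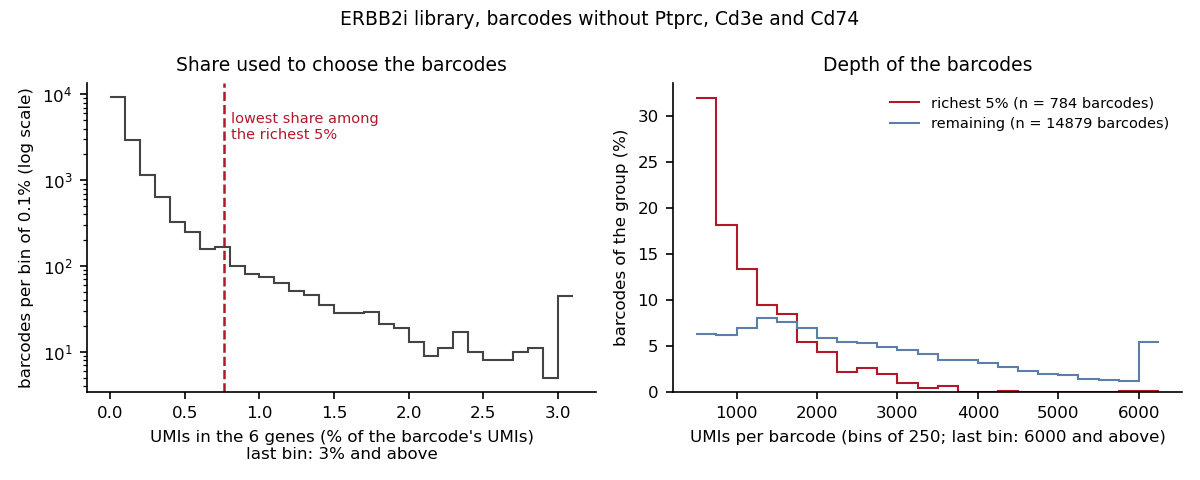
Left, barcodes per bin of 0.1% (log scale) by the share of UMIs in the 6 genes, with a dashed line at the lowest share among the rich barcodes, 0.762%. Right, the share of barcodes of each group by UMIs per barcode in bins of 250; the rich barcodes crowd toward 500 UMIs, whereas the remaining ones spread to over 6000.

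The 6 genes that chose the barcodes are described first, with no test. Their share of UMIs was continuous across the limit. The last barcodes inside had 0.762% and 0.763%, and the first outside had 0.761%. The median was 1.23% in rich barcodes, with a highest value of 5.10%, and 0.0686% in the remaining ones, of which many had none. A rich barcode held 4 to 115 UMIs of the 6 genes, with a median of 13. All 6 genes were seen in 94 rich barcodes, 5 in 163, 4 in 187, 3 in 202, and a single gene in 29 (3.70%).

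Nrxn3 encodes neurexin 3, a presynaptic adhesion receptor, and lies on mm10 chromosome 12, 88722701 to 90334935. It had 6800 UMIs per 1000000 (CPM) in rich barcodes and 372 in the remaining ones, and gave 45.6% of the 6-gene UMIs. It was the leading gene of the set in 502 rich barcodes (64.0%). Lsamp, an adhesion protein of the limbic system (chromosome 16, 39984254 to 42181679), had 2109 against 144 CPM. Ccser1, a coiled-coil protein (chromosome 6, 61179960 to 62382863), had 1972 against 110 CPM. Mdga2, which binds neuroligins at synapses (chromosome 12, 66459419 to 67222549), had 1905 against 160 CPM. Nrg3, a neuregulin that binds ERBB4 (chromosome 14, 38365102 to 39473235), had 1131 against 60.4 CPM. Asic2, an acid-sensing ion channel (chromosome 11, 80880163 to 81968396), had 1000 against 63.2 CPM. They span from 763 kb for Mdga2 to 2197 kb for Lsamp, and each of the 6 overlaps at least 1 other annotated gene.

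The 6 genes were proposed from this library as a set, so their joint detection is a description only. When each gene in turn was left out and barcodes were chosen by the other 5, the gene left out had, without matching on depth, log2 ratios of 3.65 for Nrxn3, 3.77 for Ccser1, 3.88 for Nrg3, 3.61 for Asic2, 3.16 for Mdga2 and 3.42 for Lsamp. Between 77.0% (without Nrxn3) and 93.1% (without Nrg3) of those barcodes were also rich by all 6 genes.

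The set was also detected outside the rich barcodes. Its level was 909 CPM (900 to 919) in the remaining barcodes, with no matching on depth. In 2636 barcodes with at least 3 UMIs of Ptprc, Cd3e and Cd74 together and no UMI of tumor markers such as Chga and Calca, which should not transcribe these genes, it was 895 CPM (864 to 927). In rich barcodes it was 14918 CPM. Against depth-matched remaining barcodes the log2 ratio of the 6 genes ran from 3.05 for Mdga2 to 3.56 for Nrxn3, in place of 3.58 for Mdga2 to 4.23 for Nrg3 against all remaining ones, so the shallow remaining barcodes held more of the set. After thinning every barcode to 500 UMIs, Nrxn3 was detected in 86.7% of rich barcodes, 17.8% of the remaining ones (interval 17.2% to 18.4%) and 14.1% of the immune-marker barcodes (12.8% to 15.5%), at median depths before thinning of 994.5, 2350 and 1091 UMIs. These intervals treat the barcodes of the library as independent and are no test of a difference between the remaining and the immune-marker barcodes. The levels of the set in these groups, 909 CPM (900 to 919) and 895 CPM (864 to 927), had overlapping counting intervals. Before thinning the shares of barcodes with Nrxn3 were 94.3%, 47.7% and 24.1%, in the order rich, remaining and immune-marker.

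The barcodes held UMIs of tumor markers, several at lower levels. Of 31 neuroendocrine genes, 28 had enough UMIs for a comparison (at least 100 in either group and 10 in the other). Insm1, a neuroendocrine transcription factor, had 331 CPM in rich and 332 CPM in remaining barcodes, and Nkx2-1, a lung lineage factor, 381 and 357 CPM. Chga, a granule protein, had 549 against 790 CPM and Calca, the precursor of calcitonin and CGRP, 204 against 369 CPM. Across the list 1 gene was at least 2-fold higher, against 18.8% of all genes compared, and 7 were at least 2-fold lower, against 13.1%, with a median log2 ratio of -0.48 (0.18 over all genes). The one higher was Snap25, a membrane fusion protein, at 1.13. The lowest were Resp18, a granule protein, at -1.73 and Bex2 and Nnat at -1.45, all under 10 kb, followed by Rab3b, a vesicle GTPase gene of 64.3 kb, at -1.38. Tubb3 and Tuba1a were listed at 0 in both groups and Gapdh at 13.9 CPM in the remaining barcodes, so that a 0 in these files need not mean absence.

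The summed level of neuron markers, most of it Prph, was lower in rich barcodes, whereas Rbfox3 was higher. Of 10 genes, 3 could be compared and none was 2-fold different. Rbfox3, a splicing factor of mature neurons, was at 126 and 89.2 CPM (log2 0.50), Slc17a6, a vesicular glutamate transporter, at 26.2 and 37.2 CPM (-0.50), and Prph, a peripheral neurofilament, at 196 and 378 CPM (-0.95). Slc17a7 had no UMI in rich barcodes, which allows up to 3.15 CPM at 3 counts. The list summed to 368 CPM (331 to 409) in rich, 523 CPM (516 to 530) in remaining and 481 CPM in depth-matched remaining barcodes.

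Other cell types left few UMIs. Summed levels in rich and remaining barcodes were 128 and 110 CPM for glia and Schwann cells, nearly all of it Mbp (122 and 106 CPM), with S100b, Cdh19, Sox10 and Foxd3 at 0 in rich barcodes. They were 17.8 and 10.6 CPM for endothelium, 45.1 and 36.3 CPM for fibroblasts (Pdgfra at log2 0.80), 56.7 and 80.5 CPM for pericytes and smooth muscle, and 78.7 and 114 CPM for alveolar and airway epithelium. Among these, Des, a muscle filament, at -1.32 was the only gene past 2-fold, while Rgs5 was at -0.19, Cspg4 at 0.37, Tppp3 at -0.86 and Rtkn2 at -0.18. No mesothelial UMI was found in rich barcodes, and erythroid genes had 2.10 against 60.9 CPM. B cell genes had 49.3 against 36.6 CPM, but 53.3 CPM in depth-matched remaining barcodes, and Ighm was at 0.63 against all and at -0.16 against depth-matched ones, and Pax5 at 0.35 and 0.26.

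T and NK cell genes had 148 CPM (125 to 175) in rich and 98.9 CPM (95.8 to 102) in remaining barcodes, but 348 CPM in depth-matched remaining ones, so their direction depended on depth. Cd3g and Trac, parts of the T cell receptor complex, were at 1.33 and 1.17 against all remaining barcodes and at -0.60 and -0.61 against depth-matched ones. Cd3d was at 0.82 and Trbc2 at 0.76. Myeloid genes followed the same order, at 121, 78.3 and 228 CPM, with Fcer1g, an Fc receptor chain, at 1.84 and 0.42, C1qb at 0.87, S100a8 at 0.76 and Tyrobp at 0.56. Their part in the differences below was not tested; when barcodes with any UMI of the T and NK, B or myeloid lists were left out, the level of long genes differed by 1.27 in place of 1.25.

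Across the transcriptome 10408 genes outside the 6 could be compared, and 1956 of them (18.8%) were at least 2-fold higher in rich barcodes and 1359 (13.1%) at least 2-fold lower, so that 59.0% of these calls were higher. The median gene was at 0.18, and centring on it turned the split to 45.2% higher. Against depth-matched barcodes the shares were 12% and 10.6%. The minimum of 10 UMIs was 10.5 CPM in rich barcodes, whereas 100 UMIs were 2.44 CPM in remaining ones. Genes near that level in remaining barcodes could pass only by being at least 2-fold higher in rich ones. The 18.8% and the split of calls were thus partly set by this minimum. The same limit applies to the counts by span and by list.

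The differences followed the length of the gene. In rich barcodes the 2590 genes that span 100 kb or more in the genome, the 6 left out, took 27.3% of UMIs, against 11.5% in remaining and 13.7% in depth-matched barcodes, a log2 ratio of 1.25 (1.24 to 1.25) and of 1.00 when matched. Genes under 10 kb, ribosomal protein and mt- genes left out, took 17.1% against 31.1%, at -0.86. Per gene, the median log2 ratio was -0.78 under 10 kb (2127 genes), -0.27 from 10 to 20 kb, 0.17 from 20 to 50 kb, 0.60 from 50 to 100 kb, 0.94 from 100 to 200 kb, 1.46 from 200 to 500 kb, 2.27 from 500 to 1000 kb (127 genes) and 2.73 at 1000 kb or more (47 genes). No step of this ladder went the other way, and the depth-matched medians ran from -0.71 to 2.17 in the same order.

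Of the longest genes, 120 of 127 from 500 to 1000 kb and 44 of 47 at 1000 kb or more were at least 2-fold higher and none was 2-fold lower, against 18.8% and 13.1% of all genes. Under 10 kb the shares were turned around, with 2.49% higher and 38.9% lower. Over the 10312 genes with a known span, the rank correlation of log2 ratio and span was 0.66, and 0.65 when depth-matched. The points share the same pair of barcode groups, and genes are not independent replicates.

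**Figure D2:**
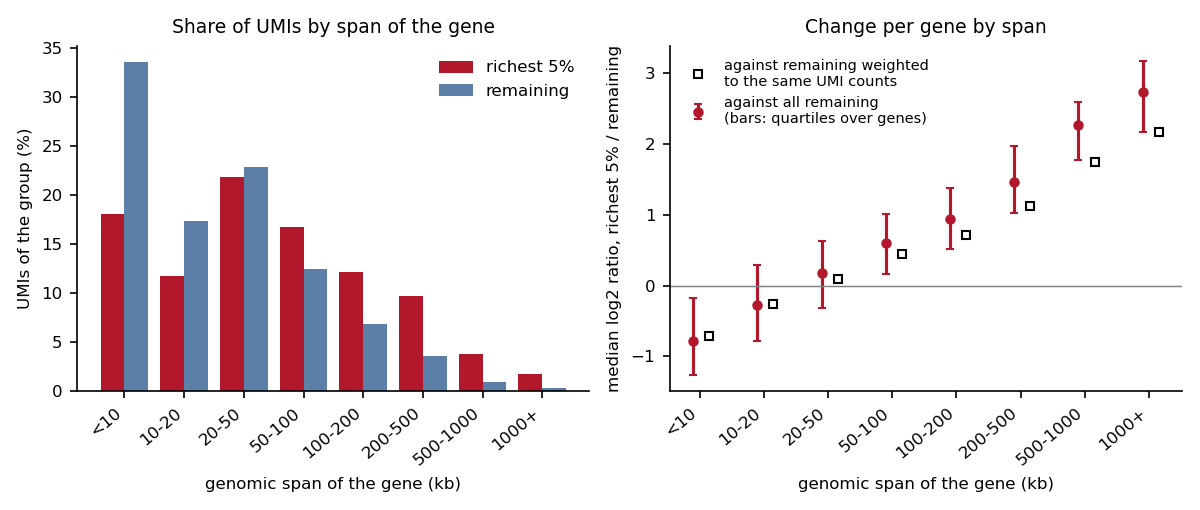
Left, the percentage of UMIs of each group in genes of each span class (the 6 genes and mt- genes left out). Right, the median log2 ratio of rich to remaining barcodes over the genes of a class with quartiles, from -0.78 under 10 kb to 2.73 at 1000 kb or more, and open squares for depth-matched remaining barcodes.

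Some genes went against their length, and these were picked out after their values were seen. Only 11 genes of 100 kb or more were at least 2-fold lower. Fbxl13, an F-box protein, was lowest at -1.68 (16.8 against 53.9 CPM), followed by Mrps28, a mitochondrial ribosome subunit, at -1.56 and Ccdc34 at -1.42 (181 against 484 CPM). Ola1, an ATPase, and Lyrm4, an iron-sulfur cluster factor, were at -1.03. Of 2127 genes under 10 kb, 53 were at least 2-fold higher. The highest were non-coding or unnamed transcripts, 9530059O14Rik at 2.48, 6430590A07Rik at 2.46 and Lncppara at 2.41. Malat1, a 6.98 kb nuclear RNA, was among them.

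By size, the 12 genes with the highest ratio included 11 with a known span, from 203 kb to 2241 kb with a median of 1077 kb, and each of these overlaps another annotated gene, so reads could be shared. Magi2, a synaptic scaffold, led with 487 against 42.2 CPM (log2 3.53, interval 3.38 to 3.68). Ctnna2, a neuronal catenin, had 1334 against 131 CPM (3.35), and Cntnap2, a neurexin family member, had 594 against 59.2 CPM (3.33). Adgrb3, an adhesion receptor, was at 3.33 and Fgf14, which binds sodium channels, at 3.31. Also among them were Erbb4 and Nrg1, described below, Sgcd, a sarcoglycan of muscle, at 3.42, Nr6a1, a nuclear receptor, at 3.34, and the uncharacterized 5730522E02Rik and Gm9801 at 3.43. Sgcd rested on 128 UMIs and Gm9801 on 54, whereas Ctnna2 had 1271.

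The 12 lowest genes were short, with a median span of 3.61 kb and none over 54.4 kb. Lsm5, an RNA-binding protein of mRNA decay and splicing complexes, was lowest at 17.8 against 112 CPM (-2.65, interval -3.43 to -1.97). Cycs, cytochrome c, was at -2.46, Ciao2b, an iron-sulfur assembly factor, at -2.41, Ube2c, a mitotic ubiquitin-conjugating enzyme, at -2.22, Dynll1, a dynein light chain, at -2.14 and Sec61g, a subunit of the translocon, at -2.14. Snrnp25, a minor spliceosome protein, was at -2.15, Cystm1 at -2.43, Gm8797 at -2.50, Nppa at -2.44, Olfr66 at -2.19 and A2ml1 at -2.16. These rested on 10 to 325 UMIs in rich barcodes, and genes such as Cycs with processed copies elsewhere in the genome are uncertain.

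The gene lists showed length and function side by side. Of 69 genes of synapse and adhesion listed as long, 61 could be compared, all but Mdga1 (60.6 kb) of 100 kb or more. Of these, 59 were at least 2-fold higher and none 2-fold lower, against 18.8% of all genes, and the median was 2.45 (1.99 depth-matched). Cntn5, Csmd3, Grm5 and Cdh18, at 3.29 to 4.61 CPM in remaining barcodes, could reach the minimum only by being at least 2-fold higher. Dlgap1 was at -1.20 with 1 UMI in rich barcodes and was not counted. Nlgn1, a postsynaptic partner of neurexins, had 1655 against 177 CPM. The exceptions were Pcdh15 at 0.06 and Lrp1b at -0.46, which span 1554 kb and 2058 kb. Of 40 long genes of general function all could be compared, 34 were at least 2-fold higher and none 2-fold lower, with a median of 1.68 (1.30 depth-matched). Fhit, a hydrolase at a fragile site, was at 3.24, Pard3b, a polarity protein, at 2.78, Dennd1a, an endocytic exchange factor, at 2.68 and Macrod2, an ADP-ribose hydrolase, at 2.54. Foxp1, a transcription factor gene of 597 kb, was at 612 and 600 CPM.

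Within classes of span the lists were closest among the longest genes. From 500 to 1000 kb the medians were 2.45 for 25 synaptic, 2.01 for 14 general and 2.24 for 88 other genes. At 1000 kb and over they were 2.71 for 27, 2.78 for 3 and 2.78 for 17 genes. From 200 to 500 kb they were apart, with the 7 synaptic genes at 2.36, the 22 general genes at 1.59 and 525 others at 1.46. No test of these differences was made.

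ErbB receptors and their ligands were examined because ERBB2 is the target of the inhibitor. Of 13 genes, 6 could be compared and 3 were at least 2-fold higher, against 18.8% of all genes. Erbb4, a receptor for neuregulins, had 1084 against 94.9 CPM (3.51, interval 3.41 to 3.61) and spans 1077 kb. Its ligand Nrg1 had 1009 against 96.9 CPM (3.38) over 1084 kb. Nrg2 had 25.2 against 6.64 CPM (1.92) over 183 kb. Of all genes compared, 93.6% at 1000 kb or more and 46.3% from 100 to 200 kb were at least 2-fold higher. Length and membership in this family were not separated by a test. The other 3 ligands with enough UMIs were not 2-fold different, with Hbegf at -0.59, Btc at -0.30 and Tgfa at 0.46. Egf had a log2 ratio of 2.65 (interval 1.36 to 3.72) but rested on 8 UMIs in rich barcodes, and Areg, Ereg and Nrg4 on 2 or fewer, so these 4 were not counted. Erbb2 itself was listed at 0 in both groups, Egfr had 3.15 and 3.29 CPM, and Erbb3 9.45 and 3.07 CPM, so the ratio of the drug's target could not be measured.

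**Figure D3:**
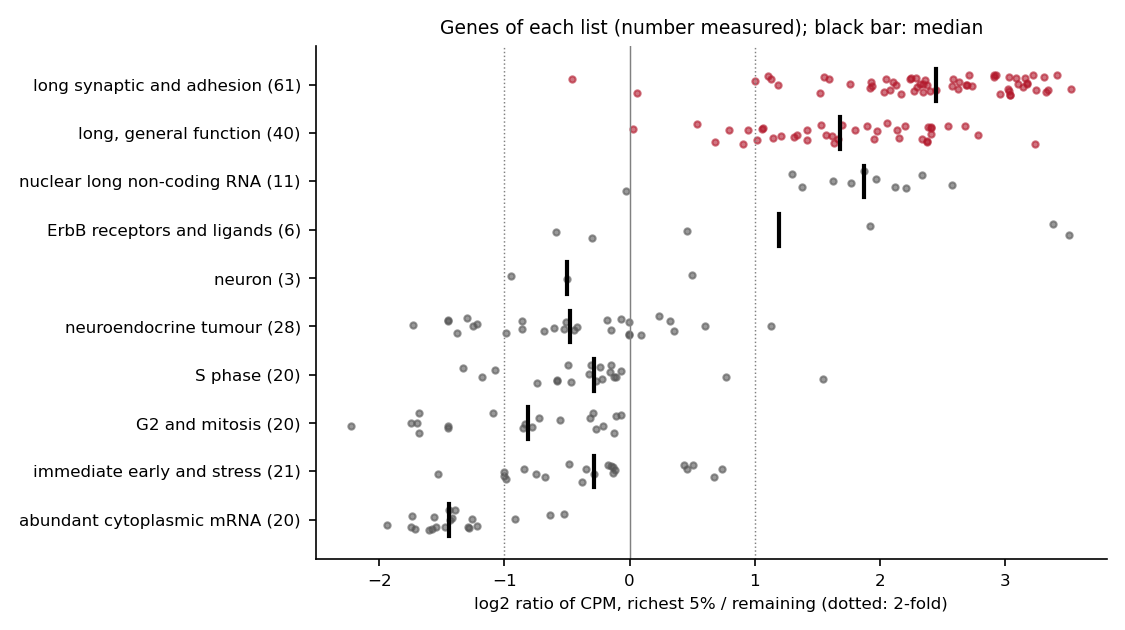
Each point is 1 gene with enough UMIs, placed by its log2 ratio of CPM in rich to remaining barcodes, and black bars are medians. Genes chosen for length (red) lie mostly past the dotted line at 2-fold, and abundant cytoplasmic mRNAs lie to the left with a median of -1.44.

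RNAs known to stay in the nucleus were higher. Malat1, a non-coding RNA of nuclear speckles (chromosome 19, 5795690 to 5802672), took 1.57% of UMIs in rich barcodes and 0.460% in remaining ones, a log2 ratio of 1.77 (1.74 to 1.79). Against depth-matched barcodes, at 0.703%, it was 1.16. In the immune-marker barcodes Malat1 took 1.27% of UMIs at a long-gene share of 9.87%, so a high Malat1 share was not particular to rich barcodes. Of 13 nuclear non-coding RNAs 11 could be compared, 10 were at least 2-fold higher (9 depth-matched), against 18.8% (12%) of all genes, and none was 2-fold lower, with a median of 1.87 (1.51 depth-matched). Kcnq1ot1, an imprinted antisense RNA that silences its neighbors, had 631 against 106 CPM (2.57). Miat, another nuclear RNA, had 259 against 51.2 CPM (2.34). Snhg14, the imprinted transcript of the Prader-Willi region, was at 2.21 and Ftx, of the X-inactivation center, at 2.12. Neat1, the scaffold of paraspeckles, had 58.8 against 24.0 CPM and Meg3 114 against 29.2 CPM. Tug1 was the exception at 74.5 and 75.8 CPM.

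Abundant cytoplasmic mRNAs were lower. The 92 Rpl and Rps genes of the ribosome took 1.07% against 2.64% of UMIs, a log2 ratio of -1.31 (-1.33 to -1.28) and of -1.25 depth-matched. Of 22 listed mRNAs 20 could be compared and 17 were at least 2-fold lower, against 13.1% of all genes, with none higher and a median of -1.44. Ubb, a ubiquitin gene, had 1444 against 5534 CPM (-1.94), Ppia, a prolyl isomerase, 72.4 against 243 CPM (-1.74), Ftl1, ferritin light chain, 493 against 1643 CPM (-1.74) and Naca, a nascent chain chaperone, 98.7 against 324 CPM (-1.72). Actb was at 1518 and 4526 CPM. Several of these genes have near-identical copies, and their levels are uncertain.

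Mitochondrial RNA was higher in the summed counts, and nearly level once more barcodes of high mt- share were left out. The 13 mt- genes took 2.35% of UMIs in rich and 1.78% in remaining barcodes, a log2 ratio of 0.41 (0.39 to 0.43) and of 0.42 depth-matched. The rule limits this share to 8% per barcode. The study's own outlier filters also leave out barcodes over 3.66% mt- UMIs. They drop 155 rich barcodes (19.8%), 149 of them over this mt- limit, and 1014 remaining ones (6.81%). The ratio was then 0.020. These filters cut the share that is measured, so this value cannot show whether the groups were level. Under those filters Malat1 stayed at 1.79 and long genes at 1.25.

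The mitochondrial share was spread widely among rich barcodes. Its quartiles were 0.614% and 3.19%, with a median of 1.84%, against 0.996%, 2.30% and 1.64% in the remaining ones. Below 1% lay 268 rich barcodes (34.2%, interval 30.9% to 37.6%) and 25.1% of the remaining ones. From 3% to 8% lay 222 (28.3%, 25.2% to 31.6%) and 11.6%. Those below 1% were the shallowest, with a median of 667 UMIs against 1211 in those of 3% and above. Their long-gene share was 28.6%, against 25.9% at 3% and above, their Malat1 share 1.33% against 1.76% and their ribosomal share 1.23% against 0.959%. A high long-gene share was found at both ends of the mitochondrial range.

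Comparing barcodes of like depth gave the same picture for long and ribosomal genes, and for Malat1 and mt- genes from 650 UMIs on only. Under 650 UMIs, where 184 rich and 600 remaining barcodes lay, the median long-gene share was 27.2% against 16.1% and the ribosomal share 1.31% against 2.15%. There Malat1 was nearly level, at 0.789% against 0.743%, and the mt- share was lower in rich barcodes, 0.533% against 0.908%. From 1200 to under 2000 UMIs, with 201 and 3602 barcodes, the long-gene share was 25.8% against 12.4%, the ribosomal share 0.797% against 2.43%, Malat1 1.59% against 0.456% and the mt- share 2.57% against 1.68%. From 650 UMIs on, the Malat1 and mt- medians were higher in rich barcodes in every class.

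**Figure D4:**
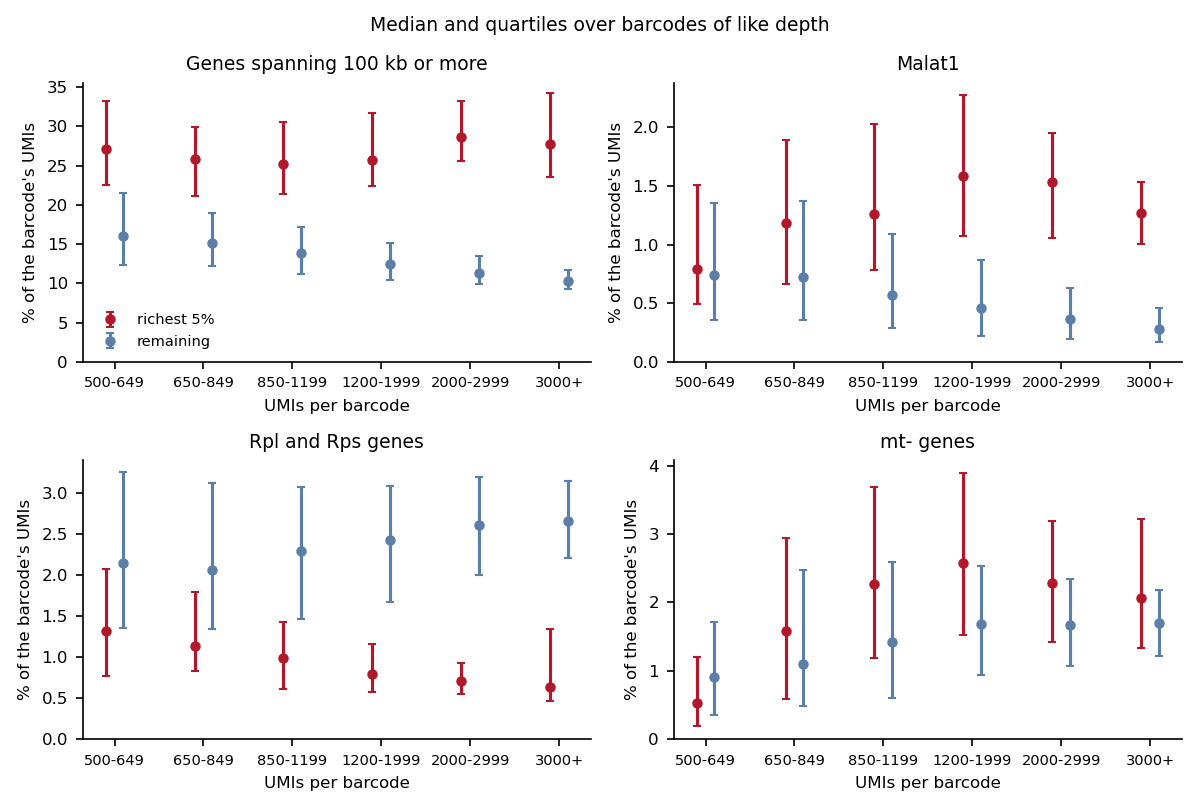
Median and quartiles over barcodes of the share of UMIs in each RNA class, by UMIs per barcode, for rich (red) and remaining (blue) barcodes. Long-gene and ribosomal medians are apart at every depth, whereas Malat1 meets under 650 UMIs and the mt- share changes order.

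Most rich barcodes shared the long-gene profile, and fewer shared the others. The long-gene share exceeded the 90th percentile of remaining barcodes, 17.7%, in 710 of 784 (90.6%, interval 88.3% to 92.5%). The ribosomal share was under the 10th percentile, 1.27%, in 521 (66.5%). Malat1 was above the 90th percentile, 1.28%, in 383 (48.9%), and the mt- share above its 90th percentile in 203 (25.9%) and below its 10th in 153 (19.5%). Both a high long-gene and a low ribosomal share were found in 507 rich barcodes (64.7%) and in 931 remaining ones (6.26%). The limits come from all remaining barcodes, with no matching on depth. In remaining barcodes under 650 UMIs the upper quartiles, 21.6% for long genes and 1.35% for Malat1, were past these limits. Their lower quartile of the mt- share, 0.357%, was also past its limit of 0.472%, whereas that of the ribosomal share, 1.35%, was not.

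Over the 784 rich barcodes, the rank correlation of long-gene and ribosomal shares was -0.54, that of long-gene and Malat1 shares 0.05 (0.43 over the remaining barcodes), and that of UMIs and mt- share 0.39. Over the 14879 remaining barcodes long-gene share fell with UMIs at -0.44, while over rich ones it was 0.04. These are shares of the same totals in 1 library and describe only its barcodes.

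The profile did not begin at the 5% limit. With all 15663 barcodes in 20 equal ranks of the 6-gene share, the median long-gene share lay between 9.82% and 12.9% in the lowest 16 and was 14.0%, 16.5%, 19.8% and 26.4% in the highest 4. The ribosomal share was 2.11%, 1.70%, 1.27% and 0.952% in these 4, and Malat1 0.603%, 0.785%, 1.12% and 1.26%. Median depth fell along them as well, at 1771, 1380, 1278 and 996 UMIs, and these ranks were not matched on depth. The 21.9% of barcodes with no UMI of the 6 genes are tied, so the lowest ranks are not ordered by the share.

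Most S phase genes were within 2-fold. Of 20 genes 1 was at least 2-fold higher and 3 were lower, against 18.8% and 13.1% of all genes, with a median of -0.29. The higher one was Pola1, a DNA polymerase subunit of 328 kb, at 1.55, and the lower ones were Gins2 (-1.33), Rrm2 (-1.18) and Pcna (-1.07), which act in replication and are under 10 kb. Of 20 genes of G2 and mitosis none was 2-fold higher and 8 were lower, against 13.1% of all genes, with a median of -0.81. When depth-matched 5 were lower, against 10.6% of all genes, and the median was -0.34. Ube2c (-2.22), Ccnb2 (-1.74), Cdk1 (-1.70) and Cdc20 (-1.69) led, whereas Mki67, at 1239 and 1518 CPM, and Top2a, at 1105 and 1377 CPM, were near level. The leading genes span 2.97 to 17.8 kb. Of all genes compared, 38.9% under 10 kb and 16.5% from 10 to 20 kb were 2-fold lower. Length and cell cycle were not separated by a test. Of 22 immediate early and stress genes 21 could be compared, none was higher and 3 were lower, against 13.1% of all genes, with a median of -0.29. When depth-matched 6 were lower, against 10.6%, and the median was -0.71. Atf3 was at -1.53, Dnajb1 at -1.01 and Ier3 at -0.99, Ier2 had 53.5 against 107 CPM, and Fos had 135 against 243 CPM.

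The 6 genes were proposed for this library, and it had the most of their transcripts. Its eligible barcodes had 1228 CPM of the set, against 249 in vehicle, 233 in anti-PD-1, 279 in combination and 4.56 in combination in response. Thinned to 500 UMIs, at least 4 UMIs of the set were found in 6.29% of ERBB2i barcodes (5.91% to 6.68%), 0.521% of vehicle, 1.01% of anti-PD-1 and 0.995% of combination barcodes. None of the 448 eligible barcodes of combination in response reached it, which allows up to 0.820%. The ERBB2i limit of 0.762% was passed by 25 vehicle, 44 anti-PD-1 and 128 combination barcodes. Barcode sequences were 24 bases long in ERBB2i and combination and 27 in the others, and the part of this difference was not tested. Library, tumor and treatment cannot be told apart here.

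Applied within the other libraries, the same ranking gave 385 of 7682 vehicle, 262 of 5240 anti-PD-1 and 776 of 15485 combination barcodes, at limits of 0.171%, 0.118% and 0.199%. These barcodes rest on medians of only 3, 3 and 4 UMIs of the set. In combination in response the set had 2 UMIs in all, and the ranking could not be applied. The chosen barcodes were shallow there too, with medians of 1041, 1009 and 1106 UMIs against 5804, 2823 and 2835.

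The ratio ran with span in the same direction in all 4 libraries. From the shortest to the longest class the median log2 ratio ran from -0.78 to 2.73 in ERBB2i, -0.57 to 2.61 in combination, -0.49 to 2.47 in vehicle and -0.38 to 2.74 in anti-PD-1. Long genes were at 1.25, 1.15, 1.08 and 1.06 in this order (depth-matched 1.00, 0.88, 0.63 and 0.92). Malat1 was at 1.77, 2.25, 2.19 and 1.72 (1.16, 1.36, 0.87 and 1.04). The mt- genes were at 0.41, 0.51, 0.81 and 0.93 (0.42, 0.68, 0.35 and 0.84), so that vehicle was second highest before matching and lowest after it. Ribosomal genes were at -1.31, -0.95, -1.22 and -0.49 (-1.25, -0.82, -0.86 and -0.58). No difference between libraries was tested.

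**Figure D5:**
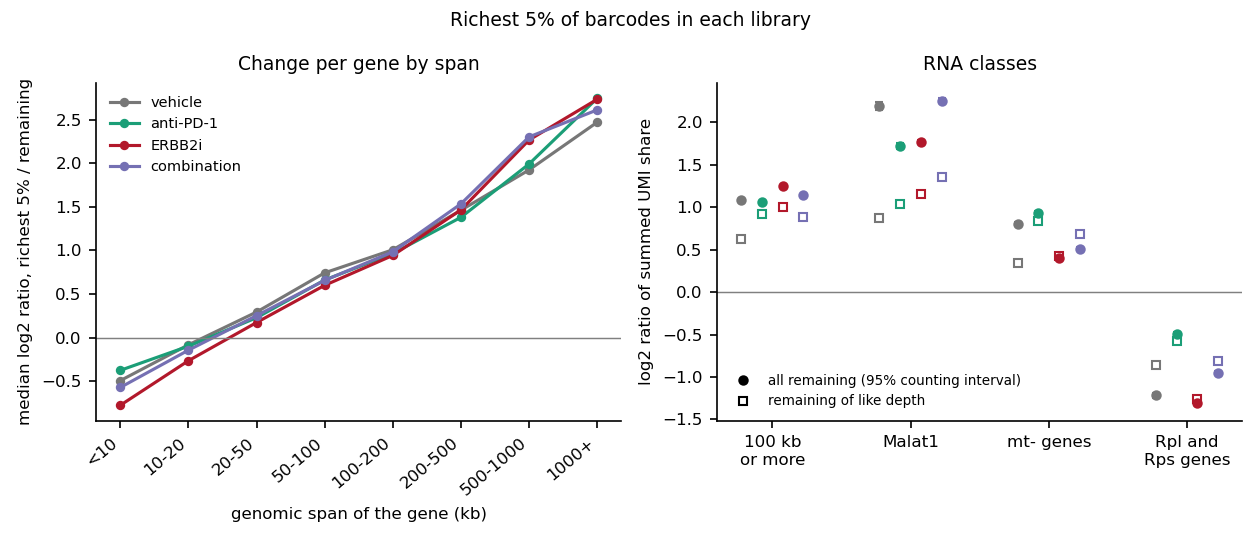
Left, the median log2 ratio of the top 5% to the remaining barcodes by span of the gene in 4 libraries; the lines lie close together. Right, log2 ratios of 4 RNA classes with 95% counting intervals, which are mostly smaller than the points, and open squares for depth-matched remaining barcodes.

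Which long genes were seen differed between tumors. Erbb4 had 1084 CPM in the rich ERBB2i barcodes and 442 CPM (156 UMIs) in those of anti-PD-1, but 1 UMI in vehicle and none in combination. Nrg3 had 1131 CPM in ERBB2i, 254 in vehicle and 198 in anti-PD-1, and 4 UMIs in combination. Nrg1 had 1009 CPM in ERBB2i, 751 in vehicle, 473 in combination and 102 in anti-PD-1. Sgcd had 134 CPM in ERBB2i and 169 in vehicle, and 7 UMIs each in anti-PD-1 and combination. Lsamp was found in all 4, at 2109 CPM in ERBB2i, 1404 in combination, 1397 in vehicle and 921 in anti-PD-1, and Adgrb3 at 913, 1222, 491 and 337 CPM. Lsamp and Nrg3 are among the genes that chose the barcodes. Their levels follow from that choice and from its limits, which differed between libraries, and are a description only. Chga was at -0.52 in ERBB2i, -0.63 in combination, -0.32 in vehicle and -0.25 in anti-PD-1 relative to the remaining barcodes of each library.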

How the data were processed

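SCLC lung tumors of 5 treatment groups were profiled by Singleron SCOPE-chip scRNA-seq, 1 library each. The deposited matrices are raw UMI counts per gene and barcode, which the authors made with CeleScope, whose version the sources used here do not give; the submitters' processing notes name Cell Ranger, Scanpy and mm10 without a role. Libraries held 21624506 to 88497833 counts, and median barcodes 1225 to 5281.

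Counts of rich and remaining barcodes were summed per gene and given per 1000000 (CPM). Log2 ratios have exact conditional 95% intervals and levels exact Poisson ones, both covering counting error only. Shares of barcodes have Clopper-Pearson intervals and medians have intervals from the ranked barcodes. Both treat barcodes as independent and do not cover differences between tumors. Genes needed at least 100 UMIs in either group and 10 in the other, and called means 2-fold. With 1 library per group no test was run. Depth matching weighted remaining barcodes in 10 UMI bins. Spans come from RefSeq GRCm38.p6 (mm10), matched by symbol or synonym for 26752 of 32589 genes and 99.1% of those compared. Shares of barcodes with a UMI used thinning to 500 UMIs (seed 1). The scripts were tested on simulated data. Named genes were the 6 of the rule, Malat1, up to 4 per list by size, and the 12 highest and 12 lowest, leaving out mt-, Rpl, Rps, haemoglobin, immunoglobulin, T cell receptor and sex-linked genes; further list members are given as context, and some items are not reported here. The members and lists were chosen with earlier results of these data known.

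Doublets were not removed. The study used SOLO, which was not used here; Scrublet (Scanpy 1.11.5, score over 0.25) marked 887 of 26294 ERBB2i barcodes, 5 rich (0.638%) and 305 remaining (2.05%). Python 3.11.15, NumPy 2.4.6, SciPy 1.17.1 and pandas 2.3.3 were used. The ERBB2i comparison was repeated with matching on UMIs, choice at 500 UMIs, at least 1000 UMIs, no mt- limit, the study's outlier filters, doublets left out, the top 2% and 10%, means of shares per barcode, centring on the median gene and a lower minimum. Added after seeing the data were choice without Nrxn3, no UMI of immune lists, and no barcodes shared with another library.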

Additional observations from a re-analysis of the deposited data

Results flagged for a closer look

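The 36 ERBB2i barcodes left out for an mt- share above 8%, though otherwise eligible, are outside the comparisons above. They held 145 UMIs of the 6 genes, 2983 CPM (2517 to 3510), which is above the 895 CPM (864 to 927) of the immune-marker barcodes and below the 14918 CPM of the rich ones. Their long-gene share was 16.9% and Malat1 took 1.60% of their UMIs, at a median of 1202 UMIs. Without the mt- limit the top 5% held 786 barcodes, of which 782 were also rich with it.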

How the results depend on the processing

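The levels of RNA classes and the counts of genes were recomputed under the alternatives in ERBB2i, except that the lower minimum was run for the counts of genes only, and the median depth only where the choice of barcodes changes. Long genes, Malat1 and ribosomal genes kept their direction wherever they were recomputed. The mitochondrial level came close to 0 under the study's filters, which limit the mt- share itself. The cause of the other shifts was not tested. The level of genes spanning 100 kb or more was 1.25 in log2, and 1.00 with depth matching, 1.12 when chosen at 500 UMIs, 1.13 with at least 1000 UMIs, 1.26 without doublets, 1.44 for the top 2%, 1.04 for the top 10%, 1.11 as a mean of shares, 1.07 when centred, 1.23 when chosen without Nrxn3, 1.27 without barcodes with immune UMIs and 1.24 without shared barcodes. Choice at 500 UMIs gave 985 barcodes because of ties, 702 of them rich in the main choice. The Malat1 level was 1.16, 1.71, 1.86, 1.81, 1.72, 1.37, 1.59 and 1.70 with depth matching, choice at 500 UMIs, at least 1000 UMIs, the top 2%, the top 10%, a mean of shares, centring and no immune UMIs. The ribosomal protein level was -1.25 with depth matching, -1.16 at 500 UMIs, -1.23 under the study's outlier filters, -1.59 for the top 2%, -1.02 for the top 10%, -1.12 as a mean of shares, -1.48 when centred and -1.40 without immune UMIs. The mitochondrial level was 0.52 with at least 1000 UMIs, 0.020 under the study's filters, 0.32 for the top 2%, 0.27 as a mean of shares and 0.23 when centred. The median UMIs per rich barcode were 1096 when chosen at 500 UMIs, 1564 with at least 1000 UMIs and 1135 for the top 10%. Genes at least 2-fold higher numbered 1244 with depth matching and 5239 with a minimum of 10 UMIs in either group, where a group at 0 was set to 3 counts. In rich barcodes 3 counts equal 3.15 CPM. Genes unseen there but low in remaining barcodes, such as Slc17a7 at 0.732 CPM, were therefore called higher. The 5239 and the split under this minimum include such genes. Genes at least 2-fold lower numbered 2060 with that minimum and 788 for the top 10%. The split of calls was then 71.8% higher with the lower minimum and 68.1% for the top 10%, against 59.0%. Cd3g turned to -0.60 and Trac to -0.61 with depth matching. For single genes 750 values stayed within their counting interval and 278 moved; for list medians 193 stayed and 22 moved. No paired analysis was possible because each group holds 1 library and no test was run. Depth limits the choice, since the shallowest rich barcodes rest on 4 UMIs of the 6 genes.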
